A study of Mus musculus with 6 samples.

Results

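Glo1 and 7 other genes of mouse chromosome 17, Dnph1, Polr1c, Mrps18a, Ppp1r11, Rcan2, Crebrf and Ergic1, were followed in the liver of chromogranin A knockout mice and wild-type mice. They are genes outside the H2 family that lie in the same stretch of the chromosome as H2-K1, a class I gene of the mouse major histocompatibility complex. Every probe set annotated to 1 of the 8 symbols alone was taken, 18 of the 22626 probe sets of the array, and 0 probe sets listed a member beside another gene. The genes were chosen because their probe sets differed between the same 2 groups that are compared here, so their own differences are given as a description; where a count of them past a threshold is printed, it stands beside the share of all probe sets and supports nothing.

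The knockout group held 3 male mice aged 12 weeks without a working Chga gene, whose product chromogranin A is stored in the hormone granules of neuroendocrine cells, and the wild-type group held 3 males of the same age. The labels cite 1 earlier study for both groups, and they give neither the inbred background of the knockout or wild-type mice nor whether they were littermates. Each liver RNA was hybridised to 1 Affymetrix array, on which a probe set is a group of short probes for 1 transcript and its signal is a linear intensity in arbitrary units. Chga lies on chromosome 12. Its own probe set, 1418149_at, read 61.5, 44.5 and 231 in knockout arrays and 167, 185 and 42.5 in wild-type arrays, above background on 2 of 6 arrays; so dim a signal is no check on which mice were knockouts.

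In the text a change is the mean of log2(intensity + 16) in knockout minus that in wild type, with its standard error (SE) from a model fitted to all probe sets, and it understates the change of dim probe sets. Of the 18 probe sets, 16 were bright enough on average to enter the fit. That filter used the mean of all 6 arrays, so a probe set dim in 1 group can enter through the other. Nothing in the sources says whether the livers came from separate litters or days, so the SDs and SEs measure only the spread between these samples. In a piece of liver, fewer cells of a type and less RNA per cell cannot be told apart. A difference in the DNA of chromosome 17 between the 2 groups of mice, which can alter how RNA binds a probe as well as its amount, was not measured, and it cannot be told apart from a difference in RNA level.

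The 8 genes serve unrelated tasks. Glo1 encodes glyoxalase 1, which acts on methylglyoxal, a reactive by-product of glycolysis, once it has bound glutathione. Hagh, glyoxalase 2, can then release lactate. Polr1c is a subunit shared by RNA polymerases I and III, and Mrps18a is a protein of the mitochondrial ribosome. Ppp1r11 inhibits protein phosphatase 1, and Rcan2 regulates the phosphatase calcineurin. Crebrf limits the transcription factor Creb3, Ergic1 cycles between the endoplasmic reticulum and the Golgi, and Dnph1 hydrolyses modified deoxynucleotides. What they share is their place. Genes between which few crossovers occur tend to be inherited together, and the H2 region is known for its variety among inbred strains. In some inbred strains Glo1 itself lies in a duplicated segment, together with Dnah8 and Glp1r.

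The order along the chromosome followed RefSeq's annotation of GRCm38.p6 and was counted over genes with a probe set of their own. Ergic1, Crebrf and Glo1 lay 104, 102 and 56 genes before H2-K1. Ppp1r11, Rcan2, Mrps18a, Polr1c and Dnph1 lay 98, 118, 130, 136 and 145 genes after it. The stretch from Ergic1 to Dnph1 was long and held 250 of the 596 genes of chromosome 17 on the array. The upstream windows of its outermost genes are chr17:26561262-26561511 for Ergic1 and chr17:46496539-46496788 for Dnph1.

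The 250 bases upstream of the annotated start are shown for 5 of the genes, in RefSeq sequence of GRCm38.p6, 5′ to 3′ on the gene's strand. They are the 4 with 1 annotated start whose kept probe sets all lay on 1 side of wild type in every array (Glo1, Crebrf, Dnph1 and Mrps18a), and Polr1c, which held the largest single difference. The windows are chr17:30612660-30612909 (minus strand) for Glo1, chr17:26715400-26715649 (plus) for Crebrf, chr17:46496539-46496788 (plus) for Dnph1, chr17:46110754-46111003 (plus) for Mrps18a and chr17:46248046-46248295 (minus) for Polr1c. Capitals mark matches, on either strand, to the CCAAT box (CCAAT), the E-box (CACGTG), the core of the antioxidant response element (TGANNNNGC), the TATA box (TATAAA) and the cyclic AMP response element (TGACGTCA), and no matches overlap.
Glo1: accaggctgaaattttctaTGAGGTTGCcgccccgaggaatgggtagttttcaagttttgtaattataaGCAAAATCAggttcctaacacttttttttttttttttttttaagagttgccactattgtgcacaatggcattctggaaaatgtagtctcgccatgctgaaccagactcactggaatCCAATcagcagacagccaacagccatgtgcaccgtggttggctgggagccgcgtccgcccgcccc
Crebrf: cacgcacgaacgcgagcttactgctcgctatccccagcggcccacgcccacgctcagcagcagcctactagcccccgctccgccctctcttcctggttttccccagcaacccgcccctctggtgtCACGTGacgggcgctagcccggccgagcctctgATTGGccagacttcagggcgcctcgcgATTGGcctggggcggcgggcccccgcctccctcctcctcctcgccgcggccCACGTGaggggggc
Dnph1: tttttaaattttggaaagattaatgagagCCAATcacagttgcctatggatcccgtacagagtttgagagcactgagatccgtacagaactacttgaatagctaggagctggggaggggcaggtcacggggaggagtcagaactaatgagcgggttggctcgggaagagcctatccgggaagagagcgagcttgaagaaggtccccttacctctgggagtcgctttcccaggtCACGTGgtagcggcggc
Mrps18a: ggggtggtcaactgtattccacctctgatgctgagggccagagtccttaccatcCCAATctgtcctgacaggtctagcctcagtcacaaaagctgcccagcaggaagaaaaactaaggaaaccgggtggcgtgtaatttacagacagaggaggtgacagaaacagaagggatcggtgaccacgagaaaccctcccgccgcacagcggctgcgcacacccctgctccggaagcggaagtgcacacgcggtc
Polr1c: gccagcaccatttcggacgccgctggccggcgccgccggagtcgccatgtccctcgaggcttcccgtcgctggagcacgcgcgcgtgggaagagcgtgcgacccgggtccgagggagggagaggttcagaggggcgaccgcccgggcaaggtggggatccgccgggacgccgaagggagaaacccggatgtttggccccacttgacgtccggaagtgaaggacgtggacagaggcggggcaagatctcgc

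The upstream windows varied in GC content and in the motifs they held. Over the 10 annotated starts of the 8 genes, GC content ran from 46.4% at Glo1 to 72% at Crebrf, with a median of 56.2%, against a median of 52.4% over the 32851 starts in the table. A CCAAT box stood in 7 of the 10 windows, against 33.8% of all starts, and an E-box in 2, those of Crebrf and Dnph1, against 6.02%. The antioxidant core stood in 4, that of Glo1 and all 3 starts of Rcan2, against 35.2%. The TATA box and the cyclic AMP element, found at 12.4% and 1.55% of all starts, matched 0 of the 10. A match says only that the letters are there.

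Of the 16 kept probe sets, 10 lay lower and 6 higher in knockout liver. In 12 of them the 3 knockout arrays did not overlap the 3 wild-type arrays, 7 lower and 5 higher; over all 13576 kept probe sets 15.6% did not overlap, 8.12% lower and 7.44% higher. By limma with Benjamini-Hochberg adjustment over all of them, 1 of the 16 passed an adjusted p of 0.05, a probe set of Polr1c that was lower in knockout, where 0.376% of all kept probe sets passed. A looser count took probe sets that differed 1.5-fold or more with an unadjusted limma p below 0.01. It held 6 of the 16, with Polr1c, Dnph1 and Crebrf lower and Rcan2, Ppp1r11 and Ergic1 higher, 1 probe set each, against 1.96% of all, 1.0% lower and 0.958% higher. Since the genes were picked from this contrast, nothing is read from these shares.

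**Figure D1:**
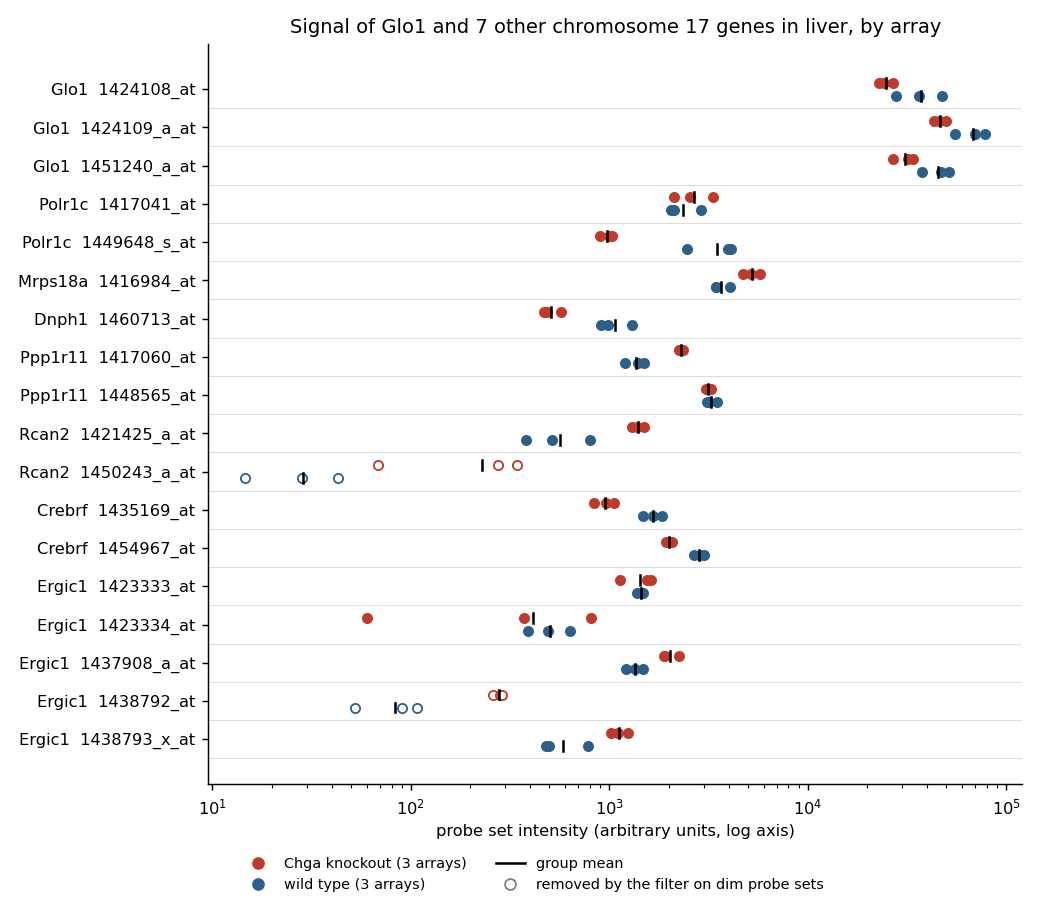
Intensity of each of the 18 probe sets on a log axis, with 1 point per array, knockout above wild type in each row, a bar at each group mean, and open circles for the 2 dim probe sets. The knockout arrays of Glo1 lie left of its wild-type arrays in all 3 rows, while the rows of Polr1c, Ppp1r11 and Ergic1 disagree with each other.

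Glo1 was read by 3 probe sets that agreed in direction and in size. Its signal is among the strongest in liver, with means between percentiles 97.1 and 98.8 of all probe sets. On 1424109_a_at knockout arrays read 49532, 46129 and 43481, and wild-type arrays read 69608, 55319 and 78720. All 3 knockout arrays lay under the lowest wild-type array, which was replicate 2.

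The other Glo1 probe sets had the same direction. 1451240_a_at read 32119, 34137 and 26904 in knockout and 46869, 37697 and 51790 in wild type. 1424108_at read 27021, 24130 and 23006 in knockout and 36564, 27874 and 47622 in wild type, where the gap between the groups was narrowest. Wild-type replicate 2 was the lowest of its group and replicate 3 the highest on each of the 3. The changes were -0.54 ± 0.12, -0.54 ± 0.13 and -0.56 ± 0.16 (SE, n = 3 per group) in the order given, or 0.690, 0.686 and 0.676 times the wild-type level, and the 3 span 0.028 on the log2 scale. The probes were designed on 1 transcript, so the 3 values are not independent. With 1 array left out they ranged from -0.76, without wild-type replicate 2, to -0.37, without wild-type replicate 3, both on 1424108_at.

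Dnph1, the other metabolic enzyme, had a single probe set, 1460713_at. It read 471, 487 and 574 in knockout and 1298, 991 and 909 in wild type. The highest knockout array was below the lowest wild-type array, and the change was -1.03 ± 0.24. Its mean lay at percentile 54.9, so the signal was moderate.

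Polr1c was read by 2 probe sets that parted. 1449648_s_at, annotated with an expressed sequence that RefSeq lists as a synonym of Polr1c, read 999, 901 and 1038 in knockout and 3948, 2466 and 4096 in wild type. The knockout arrays were tight, and all 3 wild-type arrays stood far above them. The change was -1.79 ± 0.20, the largest among the kept probe sets of the 8 genes, and it stayed between -2.02 and -1.66 in 15 alternative analyses, though it no longer passed in the fit without an intensity trend. 1417041_at, annotated with the RefSeq transcript, read 2567, 2111 and 3338 in knockout and 2047, 2110.1 and 2895 in wild type. Here the groups overlapped, at 0.18 ± 0.20. The 2 changes were 1.97 apart on the log2 scale. In the array's design the suffix _s_at marks a probe set shared by several transcripts.

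Mrps18a lay on the other side of wild type. Its only probe set, 1416984_at, read 4735, 5161 and 5786 in knockout and 4082, 3457 and 3473 in wild type. Every knockout array exceeded every wild-type array, and the change was 0.51 ± 0.13.

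Ppp1r11 showed a split like that of Polr1c, in the other direction. On 1417060_at knockout arrays read 2236, 2367 and 2276 and wild-type arrays 1491, 1195 and 1393, a change of 0.75 ± 0.15 with both groups tight and apart. On 1448565_at they read 3071, 3276 and 3147 in knockout and 3507, 3168 and 3126 in wild type. Those groups overlapped at -0.04 ± 0.12, and the sign turned after quantile normalization and without wild-type replicate 1. The platform annotation gives both the same transcript accession.

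Rcan2 held the largest difference upward among the kept probe sets. 1421425_a_at read 1506, 1388 and 1303 in knockout and 383, 804 and 517 in wild type. The knockout arrays stood clear of all wild-type arrays, of which replicate 2 was the highest, and the change was 1.34 ± 0.27. The other probe set, 1450243_a_at, was removed as dim. It read 343, 275 and 68.5 in knockout, 1 of 3 arrays above background, and 14.6, 28.2 and 42.8 in wild type, 0 of 3 above background, so no fold is given for it.

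Crebrf was lower on both of its probe sets. 1435169_at read 965, 1056 and 839 in knockout and 1843, 1661 and 1476 in wild type, at -0.79 ± 0.18. 1454967_at read 2065, 1942 and 1991 in knockout and 2666, 2874 and 2990.2 in wild type, at -0.50 ± 0.13. On neither did the groups overlap.

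Ergic1 had the most probe sets, 5, and they were divided. On 1438793_x_at knockout arrays read 1026, 1248 and 1107 and wild-type arrays 481, 498 and 782, at 0.95 ± 0.25. On 1437908_a_at they read 1915, 1896 and 2241 in knockout and 1486, 1211 and 1350.3 in wild type, at 0.58 ± 0.16. On both, all knockout arrays were above all wild-type arrays. 1423333_at overlapped, with 1619, 1133 and 1554 in knockout and 1489, 1462 and 1379 in wild type, at -0.02 ± 0.18. 1423334_at read 371, 60.3 and 806 in knockout and 493, 632 and 388 in wild type. Its value of -0.82 ± 0.72 rested on knockout replicate 2, which was below background, and was 0.14 without it. The fifth, 1438792_at, was removed as dim, at 261, 283 and 289 in knockout, 2 of 3 arrays above background, and 108, 52.4 and 90.2 in wild type, 0 of 3 above background. The suffix _x_at marks probes that can bind unrelated sequence.

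**Figure D2:**
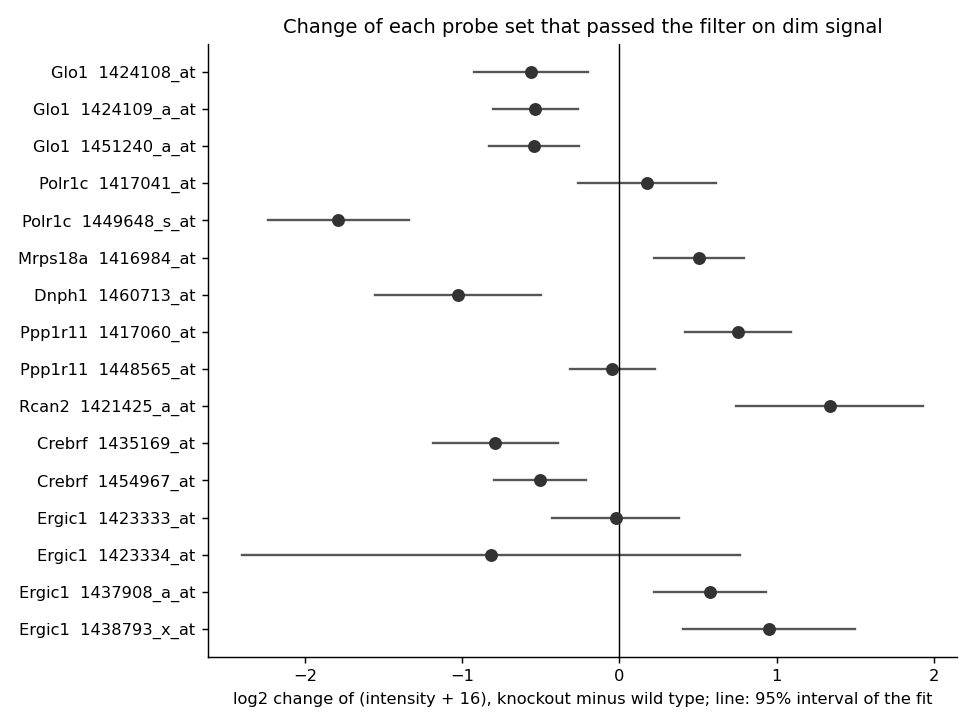
Change of each of the 16 kept probe sets (point) with the 95% interval of the fit (line), on the log2 scale, knockout minus wild type. The 3 Glo1 points lie together, between -0.56 and -0.54, and the 2 Polr1c points are 1.97 apart.

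Agreement between probe sets thus differed from gene to gene. Of the 6 genes with more than 1 probe set, Rcan2 kept a single one. Glo1 and Crebrf had all their kept probe sets on 1 side with no overlap, spanning 0.028 and 0.29. The kept probe sets of Ppp1r11, Ergic1 and Polr1c lay on both sides of 0, spanning 0.80, 1.77 and 1.97. For Ergic1 this rested on knockout replicate 2, without which its 4 kept probe sets were all above 0, from 0.14 to 0.88.

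**Figure D3:**
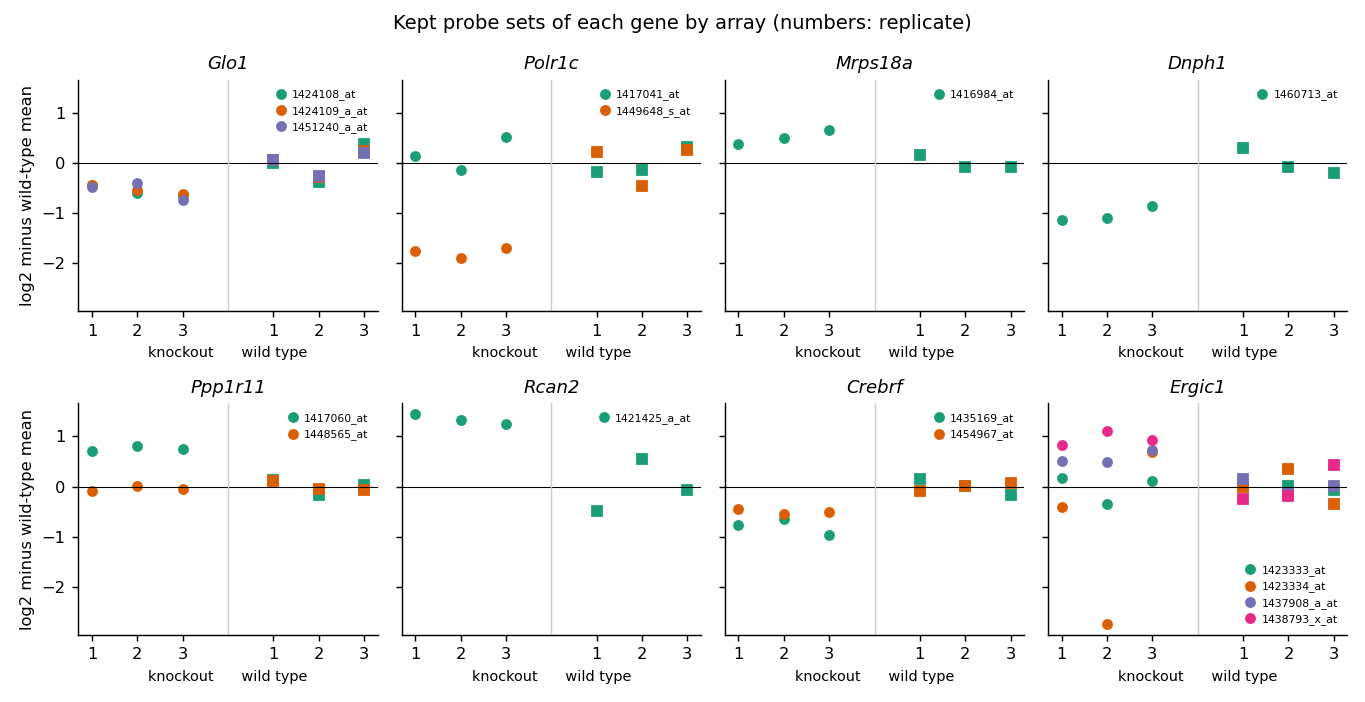
Kept probe sets of the 8 genes by array, as log2(intensity + 16) minus the wild-type mean, with circles for knockout arrays on the left and squares for wild-type arrays on the right, numbered by replicate, and 1 colour per probe set. All 3 Glo1 probe sets lie below the line on every knockout array and on wild-type replicate 2, and the low point of Ergic1 is knockout replicate 2 on 1423334_at.

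The rest of the stretch was then described. The 8 genes had been taken from it because they differed. Low counts in the remainder, by interval and among direct neighbours were therefore partly set by that choice, and nothing is read from them. Apart from the 8 genes and the H2 family, 152 genes of the stretch had 220 kept probe sets, and by limma 0 of these passed the adjusted threshold. At an unadjusted p under 0.05 there were 26, or 11.8%, against 9.97% of all kept probe sets. The groups did not overlap in 17.7%, against 15.6% of all, and 6 (2.73%) met the looser count, against 1.96%. The median change was -0.06, against -0.02 over all kept probe sets. Regardless of sign the median was 0.21, against 0.16 over all, and it was 0.22 within 50 genes on each side of H2-K1. Outside the stretch, chromosome 17 had 12.9% at an unadjusted p under 0.05, 19.1% with groups apart and 2.81% on the looser count. Its median regardless of sign was 0.18. These medians and shares were not tested. Within 50 genes on each side of H2-K1, 91 probe sets had 0 calls by limma, 15 (16.5%) at an unadjusted p under 0.05 and 4.40% on the looser count, shares that were not tested.

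The 6 were few and went both ways. Nearest to the threshold, at the same adjusted p, were Cyp4f15 and Neu1. Neu1 is a lysosomal sialidase that lies 40 genes after H2-K1, and its probe set 1416831_at read 1298, 1266 and 1268 in knockout and 2811, 2058 and 2319 in wild type. The groups lay apart, at -0.89 ± 0.16 (limma, adjusted p = 0.0504), and its other probe set was at 0.18 ± 0.35. Cyp4f15, a cytochrome P450 of fatty acid hydroxylation, was at -0.60 ± 0.11 (limma, adjusted p = 0.0504), with 8541, 8456 and 8793 in knockout and 14266, 11563 and 13321 in wild type. Over 15 alternatives, Neu1 passed in 3 and Cyp4f15 in 5, with adjusted p-values from 0.0395 to 0.214 for Neu1 and from 0.0379 to 0.282 for Cyp4f15. By limma the other 4 had adjusted p-values from 0.172 to 0.256. They were Zfp955b (-0.66 ± 0.19), the antisense transcript Znrd1as (-0.62 ± 0.16), the heat shock gene Hspa1b (1.22 ± 0.36, groups overlapping) and the translation factor Abcf1 (0.75 ± 0.23). The other kept probe sets of Abcf1 ran from 0.16 to 0.25, and that of Zfp955b was at -0.29 ± 0.23. Those of Hspa1b were at 1.18 ± 0.45 and 0.79 ± 0.40, with groups overlapping.

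The H2 genes of the same stretch carried its other calls. Of their 22 kept probe sets, 4 passed (18.2%, against 0.376% of all), all of them lower in knockout, on H2-K1, H2-Aa and H2-Bl. H2-K1 1427746_x_at was at -2.11 ± 0.20, H2-Aa 1435290_x_at at -2.03 ± 0.26 and H2-Bl 1450531_at at -2.85 ± 0.26. By limma their adjusted p-values were 0.00082, 0.0070 and 0.00075. They passed in 14, 14 and 15 of 15 alternatives. On the second of the H2-K1 probe sets that passed, 1425336_x_at, the arrays read 21842, 24203 and 29670 in knockout and 57450, 38196 and 47368 in wild type, at -0.91 ± 0.15 (limma, adjusted p = 0.0381, and up to 0.282 in the alternatives). That call was lost without knockout replicate 1 or 2 and without wild-type replicate 1 or 3. Another H2-K1 probe set, 1451931_x_at, was at 0.46 ± 0.13. The other kept probe set of H2-Aa, 1452431_s_at, was at 0.03 ± 0.29, with groups overlapping. Class I H2 genes such as H2-K1 and H2-Bl are alike in sequence, so which of them a class I probe set reads is uncertain. H2-Aa is a class II gene.

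**Figure D4:**
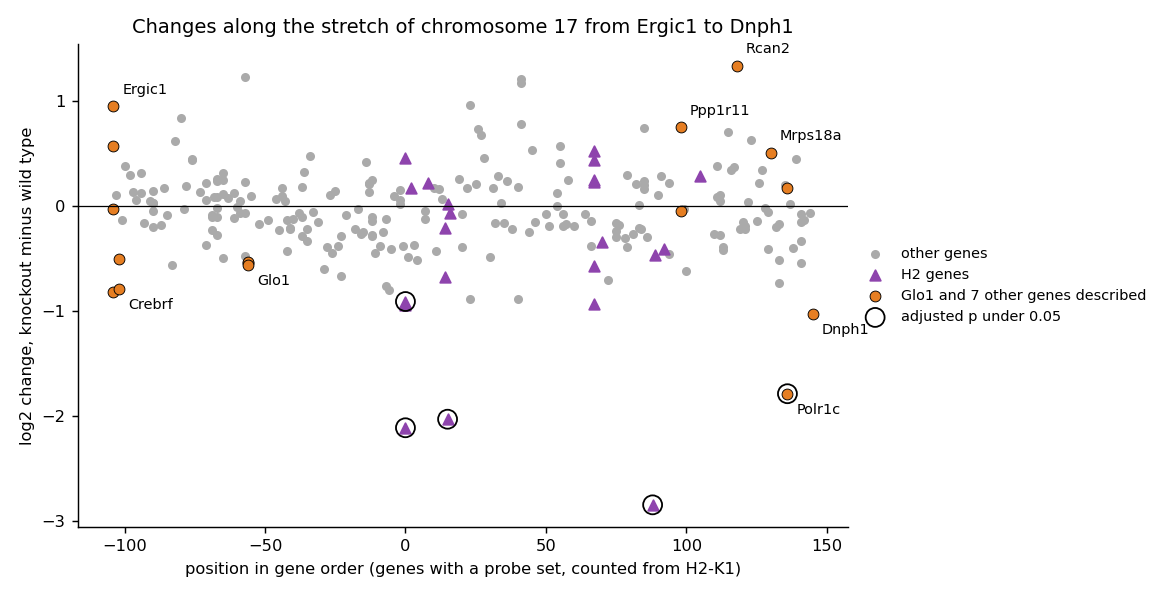
Change of each kept probe set from Ergic1 to Dnph1, on the log2 scale, knockout minus wild type, against its place in gene order from H2-K1, with the 8 genes in orange, H2 genes as triangles and circles around adjusted p-values under 0.05. Of the 5 circled points, 4 are H2 probe sets and 1 is Polr1c, and the grey points have a median absolute change of 0.21.

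Seen interval by interval, the other genes had no calls anywhere in the stretch. Between Crebrf and Glo1, 52 probe sets had a median of 0.06 and 0 met the looser count. Between Glo1 and H2-K1, 57 probe sets had a median of -0.13 and 2 met it, and between H2-K1 and Ppp1r11, 71 had a median of -0.07 and 3 met it. Farther out, 1 of 13 met it between Ppp1r11 and Rcan2, and 0 in each of the 3 intervals from Rcan2 to Dnph1. Outside the stretch, the remaining 356 kept probe sets of chromosome 17 had 2 calls (0.562%, against 0.376% of all). They were Abcg8, a sterol exporter subunit (-0.77 ± 0.13), and the transcript 1700001C19Rik (-2.30 ± 0.31).

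Chromosome 17 as a whole had the highest share on the looser count of the 20 chromosomes compared, 27 of 614 kept probe sets or 4.40%, with the others between 0.276% and 2.60%. Without H2 genes the share was 3.72%, and without H2 genes and the 8 genes, which were picked for it, 16 of 575 or 2.78%. These shares rest on few probe sets and were not tested.

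The direct neighbours of the 8 genes gave 0 calls. On either side they were 15 genes, of which 13 had 17 kept probe sets. By limma 2 of the 17 had an unadjusted p under 0.05, against 9.97% of all kept probe sets. The one that met the looser count was Dusp1, a phosphatase of MAP kinases next to Ergic1, with 7258 ± 4174 in knockout and 2367 ± 214 in wild type (mean ± SD, n = 3 each). Its groups lay apart, at 1.47 ± 0.30 (limma, adjusted p = 0.0751). The other was a probe set of Zfand3, before Glo1, at -0.48 ± 0.17 (adjusted p = 0.353); the 3 other kept probe sets of Zfand3 ran from -0.07 to 1.23. After Glo1, the kept probe set of 1700097N02Rik was at 0.10 ± 0.26. Znrd1, which lies next to Ppp1r11 and encodes an RNA polymerase I subunit, was at -0.03 ± 0.16. Xpo5 and Yipf3, around Polr1c, were at 0.20 ± 0.20 and 0.02 ± 0.15.

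The genes that share the duplicated segment with Glo1 in some strains were too dim to compare. Glp1r read 511, 396 and 103 in knockout and 211, 292 and 230 in wild type. The 2 probe sets of Dnah8 ranged from 29.5 to 322 in knockout and from 32.2 to 382 in wild type. None of the 3 was bright enough for the fit, and gene copies were not measured.

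The pathways of the 8 genes were then looked at through their other members. Beside all counts below at an unadjusted p under 0.05 stands the 9.97% of all kept probe sets. In methylglyoxal handling, 22 kept probe sets of 11 genes besides Glo1 had 0 calls, 3 at an unadjusted p under 0.05, and changes from -0.33 to 0.39 with a median of 0.05. Hagh, the second enzyme of the glyoxalase route and also a gene of chromosome 17, was at 0.23 ± 0.09, 0.12 ± 0.09 and 0.35 ± 0.17 on its 3 probe sets. Gclc, which limits glutathione synthesis, was at -0.32 ± 0.13 and -0.33 ± 0.11. None of these 5 values passed.

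RNA polymerases I and III had 33 kept probe sets besides those of Polr1c, with 0 calls, 1 at an unadjusted p under 0.05 and a median of -0.09. Polr1d, the partner of Polr1c in both enzymes, was at -0.15 ± 0.13 and 0.06 ± 0.15. The small subunit of the mitochondrial ribosome had 36, with 0 calls, 1 at an unadjusted p under 0.05 and changes from -0.30 to 0.28. Its member Mrps18b, which also lies on chromosome 17, was at -0.22 ± 0.15, and Mrps18c at 0.17 ± 0.10. Protein phosphatase 1 and its regulators had 21, with 0 calls and 0 at an unadjusted p under 0.05.

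Calcineurin and its regulators had 14 kept probe sets besides Rcan2, with 0 calls and 1 at an unadjusted p under 0.05, that of Rcan1, a sister of Rcan2 on chromosome 16. Rcan1 read 2383, 2759 and 1968 in knockout and 1269, 1693 and 1237 in wild type on 1416600_a_at. The groups did not overlap, and the change of 0.75 ± 0.19 did not pass (limma, adjusted p = 0.145). Its other probe set was at 0.50 ± 0.31. The groups lay apart on 4 of the 14, all higher in knockout, against 15.6% of all kept probe sets, 7.44% higher. They were both of Rcan1, 1 of Nfatc1 (0.72 ± 0.35) and 1 of Nfatc2 (0.72 ± 0.34). The other probe set of Nfatc1 was at 0.11 ± 0.27. The looser count held 1 of the 14, that of Rcan1, against 1.96% of all. The catalytic subunit Ppp3ca lay between -0.18 and -0.13 on 3 probe sets. In other pathways the groups lay apart on 5 of 12 for Crebrf partners and 9 of 47 for endoplasmic reticulum to Golgi cycling. For the rest it was 5 of 36 (mitochondrial ribosome), 3 of 22 (methylglyoxal), 3 of 34 (nucleotide salvage), 1 of 33 (RNA polymerases) and 0 of 21 (protein phosphatase 1).

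Among genes that cycle between the endoplasmic reticulum and the Golgi, 1 of 47 kept probe sets besides Ergic1 passed, against 0.376% of all, and 6 had an unadjusted p under 0.05. It belonged to Lman1, a cargo receptor that carries clotting factors out of the endoplasmic reticulum. On 1428130_at Lman1 read 24386, 28454 and 29306 in knockout and 18789, 18745 and 15731 in wild type. It rose by 0.62 ± 0.11 (limma, adjusted p = 0.0435), a call held in 6 of 15 alternatives, with an adjusted p up to 0.293. It did not pass once knockout replicate 2, knockout replicate 3 or any 1 wild-type array was left out. Its 3 other probe sets were at 0.43 ± 0.09, 0.37 ± 0.22 and 0.15 ± 0.13. Mcfd2, which works with Lman1 and is itself a gene of chromosome 17, was at 0.46 ± 0.12 with groups apart (limma, adjusted p = 0.157). Ergic2 and Ergic3, the sisters of Ergic1, lay between -0.31 and 0.28.

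Partners of Crebrf had 12 kept probe sets, 10 of them lower, with 0 calls, 2 at an unadjusted p under 0.05 and a median of -0.18. Both were those of Herpud1, a stress gene of the endoplasmic reticulum, at -0.47 ± 0.12 and -0.47 ± 0.13 (limma, adjusted p = 0.155 and 0.189). Nr3c1, the glucocorticoid receptor, lay between -0.34 and -0.08 on 3 probe sets. Nucleotide salvage had 34 kept probe sets besides Dnph1, with 0 calls, 1 at an unadjusted p under 0.05 and a median of 0.06.

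The array profile nearest to that of Glo1 1424109_a_at belonged to Steap4, a metalloreductase on chromosome 5, with a root mean square difference of 0.048 log2 units over the 6 arrays after centring. Next came the chemokine gene Cxcl12 at 0.067 and Dcaf12 at 0.080, on chromosomes 6 and 4. For Polr1c 1449648_s_at the nearest were Apcs at 0.29, Klhl42 at 0.33 and 1700001C19Rik at 0.35, on chromosomes 1, 6 and 17. With 6 arrays in 2 groups, such likeness reflects mostly the difference between the groups.

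Markers checked the tissue. The summed signal of 5 hepatocyte markers ran from 765657 to 852829 in knockout and from 705313 to 778061 in wild type, all 5 above background on every array. That of 9 Kupffer cell and macrophage markers, 7 of them above background throughout, ran from 17617 to 28943 in knockout and from 22451 to 29519 in wild type. Endothelial sums ran from 7399.9 to 9183 in knockout and from 8205 to 8820.1 in wild type, and stellate cell sums from 14751 to 20404 in knockout and from 18113 to 23796 in wild type, with 5 of 6 and 5 of 7 markers above background throughout. B cell and T cell markers were above background throughout for 1 of 7, neutrophil markers for 1 of 3 and cholangiocyte markers for 0 of 4. Sums of the neutrophil markers (1056 to 1478 in knockout, 825 to 983 in wild type) and of the cholangiocyte markers (602 to 658 in knockout, 666 to 909 in wild type) did not overlap, at signals mostly near background. Probe sets of 1 gene are not independent, so the number of genes is given too. Of the kept probe sets, 10 of 10 of hepatocyte markers (5 genes) were on the higher side in knockout. On the lower side were 10 of 12 of macrophage markers (8 genes) and 5 of 5 of stellate cell markers (5 genes). None of these passed by limma; 2, 0 and 1 of them had an unadjusted p under 0.05. The 1 was the collagen gene Col3a1, at -0.61 ± 0.18 (limma, adjusted p = 0.261), with groups apart. The part of these markers in the results was not tested. The share of probe sets above background was lowest in knockout replicate 2, at 64.4%, and ran from 69.2% to 76.9% in the other arrays.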

How the data were processed

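Liver RNA of 3 chromogranin A knockout and 3 wild-type mice was measured, 1 array per sample. The deposited table gives 1 linear intensity per probe set and array. GCOS 1.2 is named in the submitters' processing notes, and other steps are not given in the sources used here. Trimmed means (2% off each end) were 2499.64 to 2499.67 on all arrays, so the deposited intensities share 1 scale.

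Of 22690 probe sets, 64 controls were left out. GEO's platform annotation gave 20380 of the rest 1 gene, 691 several and 1555 none; symbols and gene order came from RefSeq (GRCm38.p6), matched by gene ID. The files name no build, so the coordinates printed are those of RefSeq's upstream windows alone.

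Log2(intensity + 16) of the upper 60% of probe sets by mean (13576) was fitted with limma 3.58.1 in R 4.3.3 (trended eBayes, no covariate), with Benjamini-Hochberg adjustment over all of them at 0.05. Background was the 95th percentile of 27 Bacillus control probe sets on each array. The procedure was tested on simulated data. The members and lists were chosen with earlier results of these data known, and older symbols of 3 polymerase subunits were matched after the files were seen. Named were all members, their direct neighbours, list and stretch genes past the threshold, and the 3 nearest profiles of Glo1 and Polr1c; other genes were chosen after their values were seen. Alternatives were pseudocounts of 1 and 64, quantile normalization, median centring, no filter or the upper 40%, no trend, array weights, a replicate block, 50 genes on each side of H2-K1, 1 probe set per gene, and each array left out. The number of arrays limits the precision.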

Additional observations from a re-analysis of the deposited data

How the results depend on the processing

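Of the 8 genes' probe sets, 1 passed in the main analysis, and 0 passed without the intensity trend. With 1 array left out the count was 1 to 3, the 3 being Polr1c, Glo1 and Rcan2 without wild-type replicate 2. Over all probe sets 51 passed; the count was 82 with array weights, 7 without the intensity trend and 27 with the replicate number as a block, and 21 to 57 with 1 array left out, at 23 without wild-type replicate 1 and 21 without wild-type replicate 3. For the other genes of the stretch the main count was 0. It was 2 with array weights, a pseudocount of 64 or the upper 40% (Neu1 and Cyp4f15), 1 after quantile normalization (Cyp4f15), 1 with the replicate block (Hspa1b), and 0 to 1 with 1 array left out (Cyp4f15 without wild-type replicate 2). Same-numbered arrays did not deviate together (Pearson's r across probe sets from -0.065 to -0.059), so the numbers were not taken as pairs.

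The signs of all member probe sets held in every alternative run, except 1448565_at of Ppp1r11 and 1423333_at and 1423334_at of Ergic1, none of which passed. The signal over background limits the dim probe sets of Rcan2 and Ergic1. Causes were not tested.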
